A study of Mus musculus with 6 samples.

Results

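Samd9l and 8 other interferon response genes were followed in the neocortex of Tshz3 mutant mouse embryos. The 9 genes were Samd9l, Stat2, Irf9, Irf7, Oasl2, Bst2, Isg15, Ifit3 and Usp18, matched by symbol, and they made up 9 of the 23420 genes counted. Samd9l was picked because its increase was among the largest in an earlier fit of these same libraries, and the other 8 were taken as known interferon response genes to set beside it. The values of all 9 in this contrast are therefore given as a description, with no p-value, and where a fit's threshold is mentioned for them it supports nothing. The question was whether the higher Samd9l level came with a wider interferon response.

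The mutant group, labelled KO, held 3 libraries from neocortex of embryos with a mutant Tshz3 gene, which encodes a zinc finger transcription factor. The wild-type group, labelled WT, held 3 libraries from wild-type neocortex. All embryos were at embryonic day 18.5, and each library was made from the pooled cortices of 3 to 4 embryos out of several litters. The sources used here do not give the strain, the sex of the embryos or the part of Tshz3 that was altered. Total counts were 20836732, 24147810 and 19894144 in KO libraries 1 to 3, and 21052832, 20772628 and 18569383 in WT libraries 1 to 3. Levels are in CPM, the reads of a gene scaled to the normalised size of its library. Tshz3 itself was at 89.8, 93.1 and 99.2 CPM in KO libraries, against 78.7, 83.0 and 89.3 CPM in WT libraries. Its gene-level count was thus not lower in KO libraries and did not check the labels, so these are called KO-labelled libraries. The labelled tissue was met by its marker Neurod6, a gene of cortical excitatory neurons that averaged 634 CPM in KO-labelled and 598 CPM in WT libraries. In pooled whole tissue, fewer cells of a type and less RNA per cell cannot be told apart.

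Cells that sense viral nucleic acid release type I interferons, which bind the receptor chains Ifnar1 and Ifnar2 on the same and neighbouring cells. The kinases Jak1 and Tyk2 then phosphorylate Stat2, which joins Irf9 in the complex ISGF3. ISGF3 binds the interferon-stimulated response element (ISRE) and switches on many antiviral genes together, while type II interferon acts through the GAS element. Samd9l encodes a large cytoplasmic protein with a SAM domain that restricts poxviruses and slows cell growth. Microglia and vessel cells are well-known responders in the brain, and neurons also carry the receptor.

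Promoter windows, from 250 bases before to 50 bases after the transcription start, were taken from RefSeq on GRCm38.p6 and were found for 8 of the 9 genes. They are shown for Samd9l, as the gene in question, and for the 4 genes whose window held an ISRE core. Each is written 5′ to 3′ on the strand of its gene. Capitals mark the core GAAANNGAAA on either strand, and in Samd9l, which had no such match, the shorter run GAAANNGAA. The windows lie at chr6:3399522-3399821 (minus strand) for Samd9l, chr4:156200769-156201068 (minus) for Isg15 and chr8:71537423-71537722 (minus) for Bst2. Those of the plus strand lie at chr19:34583279-34583578 for Ifit3 and chr10:128270248-128270547 for Stat2.
Samd9l: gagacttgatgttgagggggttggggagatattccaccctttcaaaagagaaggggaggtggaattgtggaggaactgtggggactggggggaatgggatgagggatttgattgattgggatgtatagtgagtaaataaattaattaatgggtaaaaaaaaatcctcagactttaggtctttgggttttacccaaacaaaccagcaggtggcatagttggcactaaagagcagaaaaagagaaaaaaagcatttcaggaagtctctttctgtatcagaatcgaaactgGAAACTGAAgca
Isg15: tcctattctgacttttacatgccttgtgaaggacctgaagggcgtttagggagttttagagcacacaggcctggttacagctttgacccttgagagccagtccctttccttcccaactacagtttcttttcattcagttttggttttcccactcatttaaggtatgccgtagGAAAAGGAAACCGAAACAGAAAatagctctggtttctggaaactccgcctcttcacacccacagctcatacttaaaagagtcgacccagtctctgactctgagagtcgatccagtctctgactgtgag
Bst2: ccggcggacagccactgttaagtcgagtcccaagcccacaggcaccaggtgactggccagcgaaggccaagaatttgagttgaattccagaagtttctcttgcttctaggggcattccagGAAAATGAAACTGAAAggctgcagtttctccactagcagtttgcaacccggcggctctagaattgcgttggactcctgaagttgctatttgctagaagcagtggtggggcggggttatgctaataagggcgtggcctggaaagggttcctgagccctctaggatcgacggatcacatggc
Ifit3: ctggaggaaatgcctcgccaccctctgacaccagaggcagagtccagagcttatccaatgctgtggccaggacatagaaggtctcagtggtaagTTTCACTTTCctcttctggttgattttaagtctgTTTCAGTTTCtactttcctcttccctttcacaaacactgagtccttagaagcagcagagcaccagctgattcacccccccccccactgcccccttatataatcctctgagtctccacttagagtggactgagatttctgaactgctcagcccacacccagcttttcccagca
Stat2: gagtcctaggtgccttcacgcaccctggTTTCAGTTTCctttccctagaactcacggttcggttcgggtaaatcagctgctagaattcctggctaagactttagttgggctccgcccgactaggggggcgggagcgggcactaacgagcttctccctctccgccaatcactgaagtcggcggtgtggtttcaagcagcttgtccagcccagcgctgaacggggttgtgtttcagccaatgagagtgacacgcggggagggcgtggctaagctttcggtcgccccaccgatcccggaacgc

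Isg15 held 3 overlapping ISRE cores that began 78 bases before the start, and Bst2 held 2 overlapping cores that began 130 bases before it. Ifit3 held 2 separate cores, at 156 and 122 bases before the start, and Stat2 held 1 at 222 bases before it. No ISRE core was found in the windows of Samd9l, Irf9, Irf7 or Oasl2. Of 27025 genes with a window, 3.99% held an ISRE core, counting both strands. The shorter run GAAANNGAA, searched after the Samd9l sequence had been read, occurs inside every ISRE core and was held by 9.76% of genes. It was present in Samd9l, as GAAACTGAA, from base 39 after the start. The GAS core TTCNNNGAA, held by 9.55% of genes, was found among the 9 genes in Bst2 only, where it overlapped the first ISRE core. These matches describe letters in the window, and binding was not measured. Only exact matches in these windows were searched, so looser or more distant elements would not be seen.

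**Figure D1:**
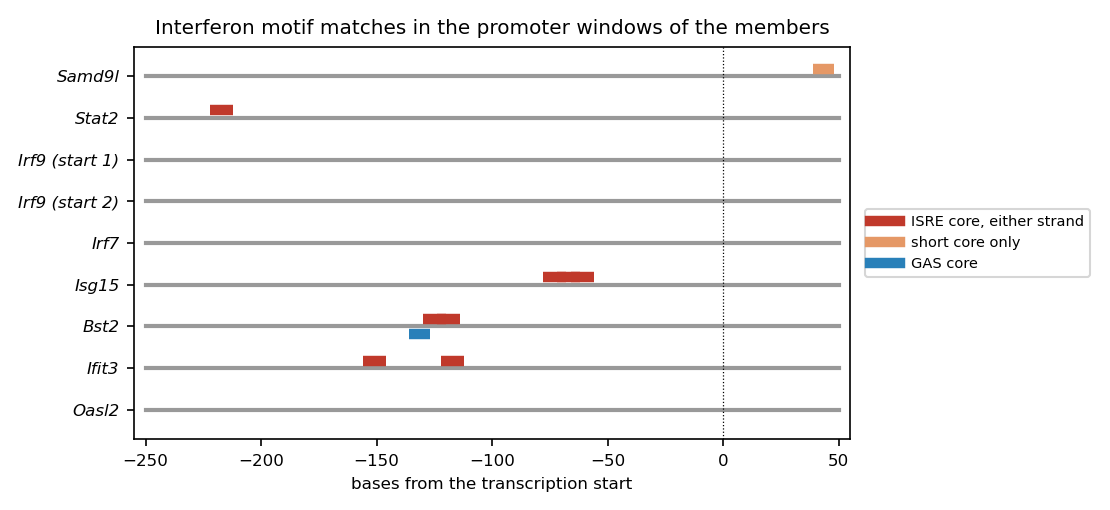
Promoter windows of the genes with a RefSeq entry, one line per transcription start (Irf9 has 2), with the distance from the start in bases on the horizontal axis. Red blocks are ISRE cores on either strand, the orange block is the shorter run where no full core was present, and the blue block is a GAS core; Isg15, Bst2, Ifit3 and Stat2 carry red blocks, and Samd9l carries the orange block alone.

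Samd9l stood apart between the genotypes. It spans chromosome 6 from 3372257 to 3399572 on the minus strand of GRCm38, with 5427 exonic bases and no overlapping annotated gene, so its reads had no annotated rival. Its reads numbered 66, 100 and 81 in KO-labelled libraries 1 to 3, against 23, 32 and 19 in WT libraries 1 to 3. That is 3.11, 4.17 and 4.08 CPM in KO-labelled libraries, against 1.09, 1.55 and 1.03 CPM in WT libraries. The groups did not overlap, and the lowest KO-labelled library lay well above the highest WT library. The means were 3.79 ± 0.587 CPM in KO-labelled and 1.22 ± 0.280 CPM in WT libraries (SD, n = 3 each). The fitted log2 fold change was 1.62 (SE 0.24, 95% interval 1.07 to 2.17), or 3.08-fold. Same-numbered libraries, which deviated together from their group means and were taken as pairs, gave log2 differences of 1.43, 1.38 and 1.89. With the library number as a block the value was again 1.62 (SE 0.21, interval 1.18 to 2.05). In all 3 pairs the difference was larger than that between libraries of the same genotype. As Samd9l was picked for the size of its increase, this supports nothing. Counting Samd9l itself, 4 of the 14618 tested genes had a log2 fold change of 1.62 or more.

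**Figure D2:**
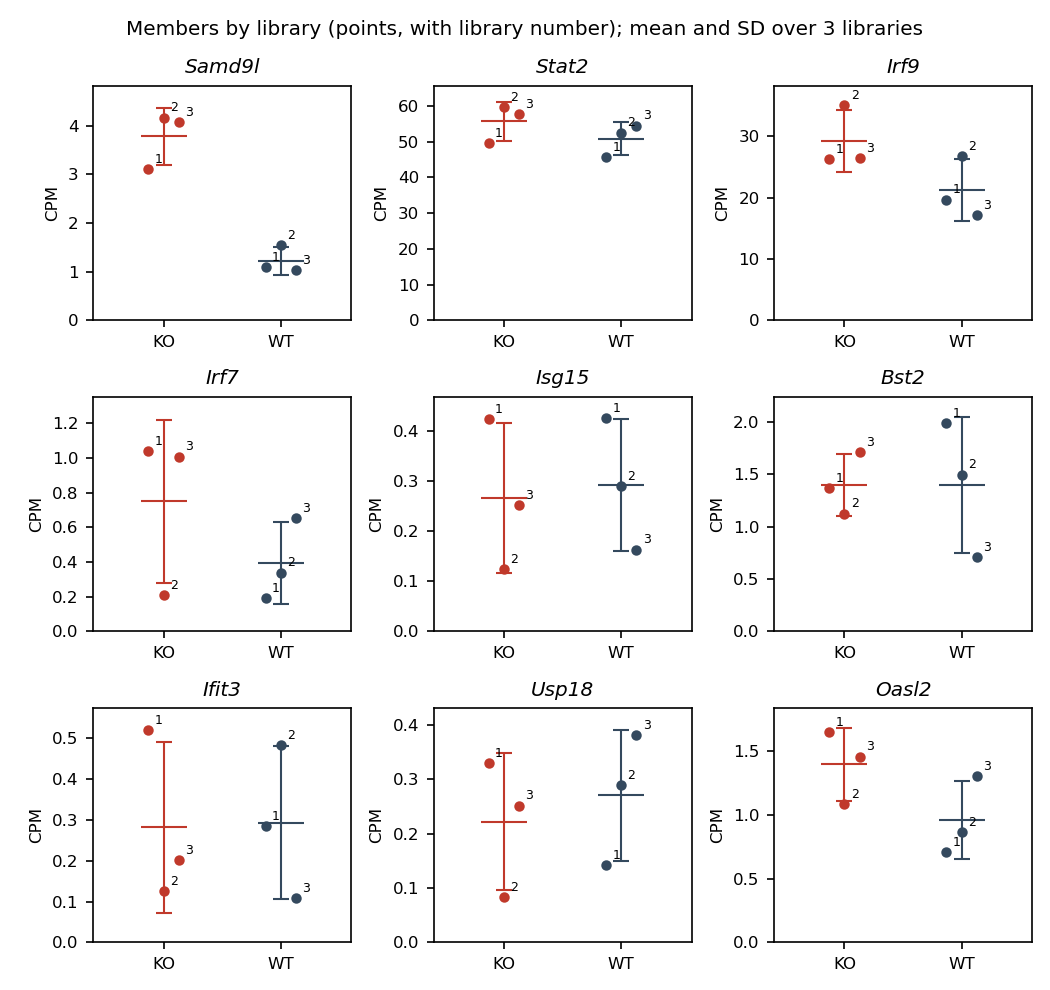
Level of each of the 9 genes in CPM (vertical axis, from 0, its own scale in each panel) in the KO-labelled (red) and WT (blue) libraries; points are libraries with their number, and bars are the mean and SD over 3 libraries. The KO-labelled points of Samd9l sit between 3.11 and 4.17 CPM, all above the WT points at 1.03 to 1.55 CPM, while in every other panel the groups overlap.

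The ISGF3 genes were present at moderate levels, and their groups overlapped. Stat2, the transactivating subunit, was at 49.5, 59.7 and 57.7 CPM in KO-labelled libraries, against 45.6, 52.5 and 54.4 CPM in WT libraries. The ranges overlapped, although each KO-labelled library exceeded the WT library of the same number. The log2 fold change of Stat2 was 0.13 (SE 0.10). Irf9, the DNA-binding subunit, was at 26.3, 35.1 and 26.4 CPM in KO-labelled libraries, against 19.7, 26.8 and 17.1 CPM in WT libraries. WT library 2 lay above KO-labelled libraries 1 and 3, so the groups overlapped, with library 2 the highest of each genotype. Within pairs the log2 differences of Irf9 were 0.42, 0.39 and 0.63. Its log2 fold change was 0.47 (SE 0.19), and with the library number as a block 0.47 (SE 0.08), a value that put it past the threshold of that fit. Irf9 overlaps Rnf31, a ubiquitin ligase gene on the same strand, and reads in the shared stretch could go to either. Rnf31 was at 27.6, 35.9 and 32.0 CPM in KO-labelled libraries and 31.8, 39.2 and 31.4 CPM in WT libraries, a log2 fold change of −0.10 (SE 0.12). The part of the overlap in the Irf9 value was not tested.

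Irf7, the factor that amplifies interferon transcription once a response has begun, had few reads in every library. There were 22, 5 and 20 reads in KO-labelled libraries and 4, 7 and 12 reads in WT libraries. KO-labelled libraries 1 and 3 were high, while KO-labelled library 2 lay among the WT libraries. The log2 fold change was 0.92 with an SE of 0.67 and a 95% interval of −0.63 to 2.48, and the pairs disagreed in sign at 1.99, −0.51 and 0.56. Irf7 overlaps Phrf1 on the opposite strand, a gene at 125 to 137 CPM in KO-labelled and 107 to 133 CPM in WT libraries. The sources used here do not say whether the counting used strand, so some Irf7 reads may belong to Phrf1.

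Among the antiviral effectors, Oasl2, an oligoadenylate synthetase-like gene, was at 1.65, 1.08 and 1.46 CPM in KO-labelled libraries, against 0.711, 0.869 and 1.31 CPM in WT libraries. Each KO-labelled library was above the WT library of its number, but WT library 3 exceeded KO-labelled library 2. The log2 fold change of Oasl2 was 0.54 (SE 0.31, 95% interval −0.18 to 1.26), and its pair differences of 1.11, 0.29 and 0.15 were unequal. Bst2, whose product tethers budding virions to the cell, was at 1.37, 1.13 and 1.71 CPM in KO-labelled libraries, against 1.99, 1.50 and 0.708 CPM in WT libraries. The WT libraries held both the highest and the lowest Bst2 value. Its log2 fold change was −0.01 (SE 0.37, interval −0.88 to 0.85), with pair differences of −0.51, −0.38 and 1.17.

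Isg15, Ifit3 and Usp18 did not pass the filter on low counts. Isg15, a ubiquitin-like protein joined to other proteins in the response, had 9, 3 and 5 reads in KO-labelled libraries and 9, 6 and 3 reads in WT libraries. Ifit3, an antiviral tetratricopeptide protein gene, had 11, 3 and 4 reads in KO-labelled libraries and 6, 10 and 2 reads in WT libraries. Its count is uncertain because of the near-identical Ifit3b. Usp18, which removes Isg15 from proteins and dampens receptor signalling, had 7, 2 and 5 reads in KO-labelled libraries and 3, 6 and 7 reads in WT libraries, and it overlaps an antisense lincRNA. The groups of all 3 genes overlapped. Fitted without the filter on low counts, the log2 fold changes were −0.16 (SE 0.58) for Isg15, −0.08 (SE 0.67) for Ifit3 and −0.29 (SE 0.62) for Usp18. With such errors a change as small as that of Irf9 was not detectable in these 3 genes. The upper end of the 95% interval was 1.13 for Isg15, 1.41 for Ifit3 and 1.10 for Usp18. These lay below the Samd9l value of 1.62, a high mark because Samd9l was picked for its size.

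Per kilobase of exon, Stat2 had the highest level of the 9 genes, 9.39 CPM per kb in KO-labelled and 8.58 CPM per kb in WT libraries. Exon length here joined the exons of all annotated transcripts of a gene, which can exceed the length of any 1 transcript and lower the value. It was 5386 bases for Irf9, and for Irf7 3776 bases, the whole span of the gene. The order of the genes depends on these lengths, and the annotation used for counting is not given. Irf9 followed at 5.43 CPM per kb in KO-labelled and 3.93 CPM per kb in WT libraries. The level of Bst2 was next, with means of 1.55 CPM per kb in both groups. Samd9l was at 0.698 CPM per kb in KO-labelled libraries, with a range of 0.573 to 0.768, and at 0.225 CPM per kb in WT libraries, with a range of 0.191 to 0.285. Samd9l thus ranked below Stat2, Irf9 and Bst2 in both genotypes. In WT libraries its range overlapped those of Isg15, Ifit3 and Oasl2, and in KO-labelled libraries it lay above all other ranges of the lower genes. Isg15 averaged 0.353 CPM per kb in KO-labelled and 0.388 in WT libraries, and Oasl2 0.219 in KO-labelled and 0.151 in WT libraries. Irf7, Ifit3 and Usp18 had means from 0.0795 to 0.199 CPM per kb in KO-labelled and 0.0972 to 0.167 in WT libraries, with overlapping ranges.

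Of the 9 genes, 6 passed the filter on low counts and 3 did not. Without the block, edgeR's quasi-likelihood test called 0 of the 6, where 0.0479% of all tested genes were called higher and 0.0274% lower, 0.0752% in all. With the block it called 2, Samd9l and Irf9, both higher, where 1.97% of tested genes were called higher and 1.49% lower, 3.46% in all. DESeq2 called Samd9l alone, but its own filter on low counts left Irf7, Oasl2 and Bst2 without an adjusted p. Of the 12913 genes to which it gave one, it called 0.511% higher and 0.325% lower, 0.836% in all. Nothing is read from these counts, because Samd9l was chosen with this contrast known. Samd9l alone had groups that did not overlap, KO-labelled above WT, a pattern shown by 7.42% of tested genes. In 4 of the 6 (Samd9l, Stat2, Irf9 and Oasl2) the KO-labelled library was higher in every pair, as in 19.3% of tested genes.

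The wider pathway was read from 136 other genes in 7 lists, of which 82 had enough reads to be tested. None of the 82 was called higher or lower, with or without the block, or by DESeq2. DESeq2 gave an adjusted p to 12913 of the 14618 genes only, so low genes of the 82 may have had none. The smallest adjusted p was 0.550 without the block and 0.146 with it. At an unadjusted p under 0.05 there were 2 genes, 2.44% of the 82, against 7.09% of all tested genes. With the block there were 6, or 7.32%, against 17.9% of all tested genes. The median log2 fold change of the 82 was 0.01, against −0.01 over all tested genes, with 42 values above 0 and 40 below. In KO-labelled libraries 15 of the 82, or 18.3%, were higher in every pair, against 19.3% of all tested genes. Lower in every pair were 6, a pattern shown by 19.8% of all tested genes. No gene of the 82 reached the log2 fold change of Samd9l, and in 81 of them the 95% interval ended below 1.62. In 72 the interval ended below 1, a 2-fold increase. In those 81 genes an increase as large as that of Samd9l lay outside the interval, while smaller changes were not detectable in the low genes. Samd9l was picked for the size of its increase, so 1.62 is a high mark. Only 4 of the 14618 tested genes, Samd9l included, reached it, and ending below it does not tell whether a weaker response was present.

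**Figure D3:**
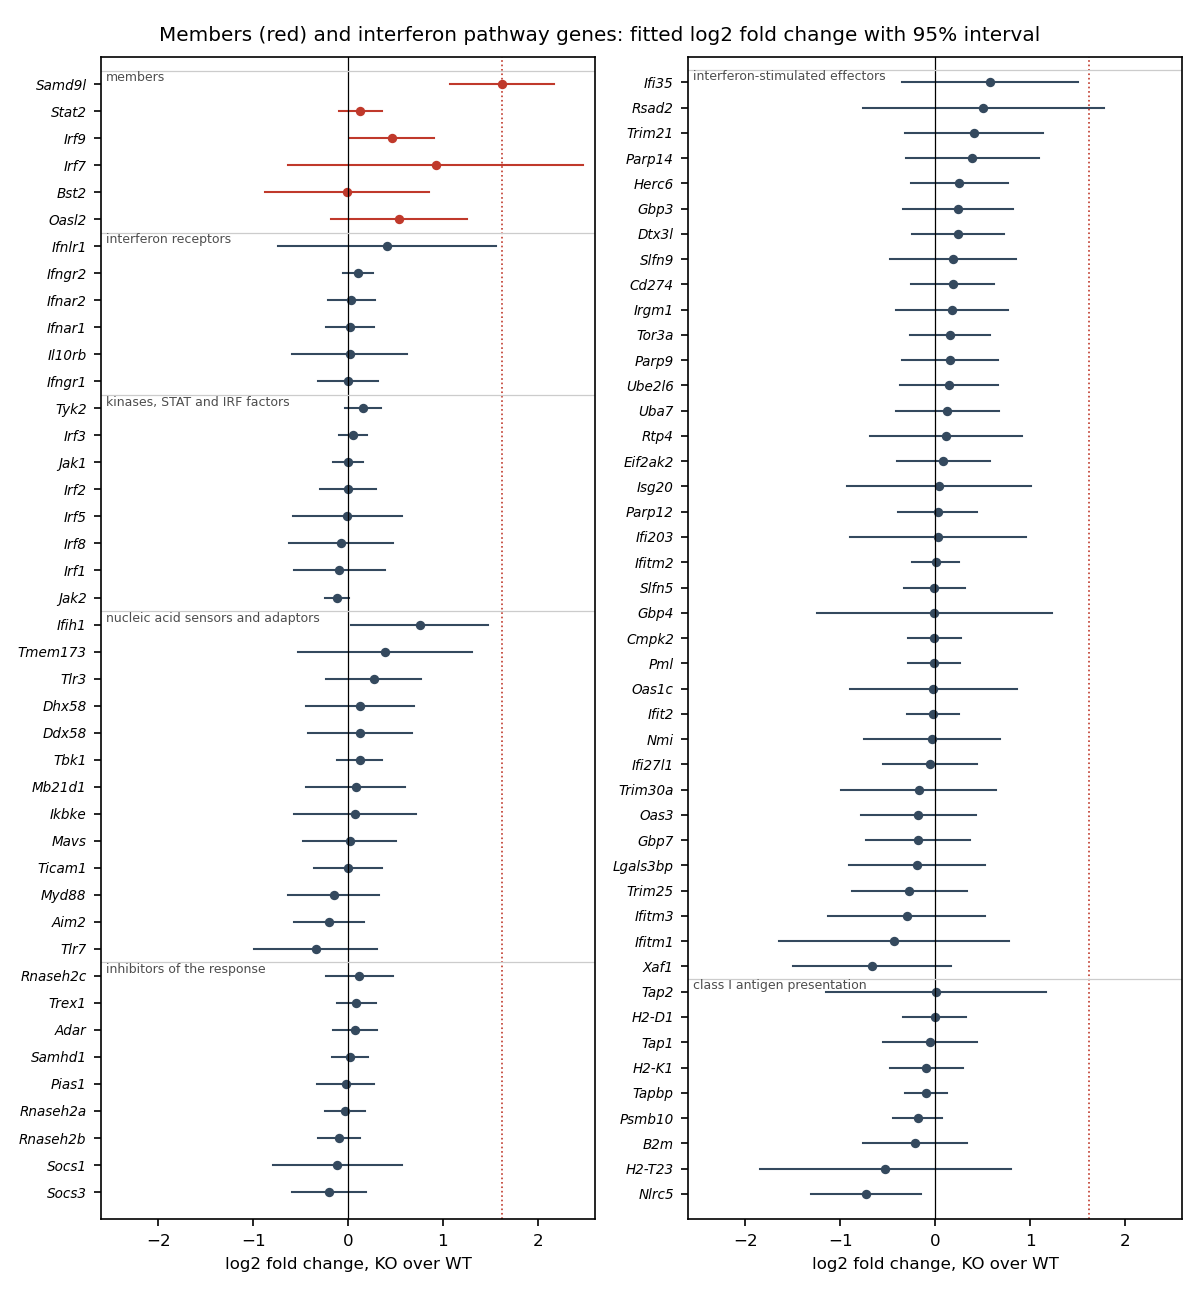
Fitted log2 fold change, KO over WT (horizontal axis), with its 95% interval for the 6 tested genes of the Samd9l set (red) and 81 of the 82 tested pathway genes (blue), grouped by role and sorted within each group. The dotted line marks the Samd9l value of 1.62; every blue interval except that of Rsad2 ends to the left of it.

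Ligand transcripts were close to absent. Of 20 interferon genes in the table, including Ifnb1, the interferon-alpha genes and the lambda genes, 19 had no read in any library. The exception was Ifng, type II interferon, with 1 read in WT library 2 and none in KO-labelled libraries. A count of 0 over a genotype allows a level of up to 3 counts, which is 0.0461 CPM in KO-labelled and 0.0499 CPM in WT libraries, counting error only. The interferon-alpha genes are near-identical copies, and reads that fit several copies may have been dropped. The globin genes Hba-a1, Hba-a2, Hbb-b1 and Hbb-b2 were likewise listed with no read, while the globin entry Beta-s stood at 174 to 225 CPM in KO-labelled and 136 to 270 CPM in WT libraries. Ifnb1 has no such near copy.

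The receptors were expressed and differed little. Of 6 receptor genes, 0 were called in either fit, and their median log2 fold change was 0.03. Ifnar1, the signalling chain of the type I receptor, averaged 121 ± 11.8 CPM in KO-labelled and 119 ± 15.7 CPM in WT libraries (log2 fold change 0.02, SE 0.11, adjusted p = 0.989 by edgeR). Ifnar2, the other chain of that receptor, averaged 26.5 ± 1.63 CPM in KO-labelled and 25.8 ± 3.28 CPM in WT libraries. Ifngr2, a chain of the type II receptor, averaged 97.0 ± 2.25 CPM in KO-labelled and 90.3 ± 6.96 CPM in WT libraries (log2 fold change 0.10, adjusted p = 0.827, with the block 0.260).

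Of 9 tested kinase, STAT and IRF genes, 0 were called in either fit. Their median log2 fold change was 0.00 to 2 decimals. Jak1, which both receptor types use, averaged 116 CPM in KO-labelled and 116 CPM in WT libraries. Tyk2, the kinase bound to Ifnar1, averaged 38.2 ± 2.26 CPM in KO-labelled and 34.3 ± 2.55 CPM in WT libraries (log2 fold change 0.15, SE 0.08, adjusted p = 0.784, with the block 0.215). Jak2, a kinase of the type II receptor and of many cytokine receptors, was at 113, 121 and 114 CPM in KO-labelled libraries, against 121, 129 and 128 CPM in WT libraries. Its groups did not overlap, KO-labelled below WT, but by a small gap. Such groups were found in 2 of the 82 pathway genes, or 2.44%, against 6.09% of all tested genes. The adjusted p of Jak2 was 0.735 by edgeR, with the block 0.146.

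Of 13 tested nucleic acid sensors and adaptors, 0 were called, with a median of 0.08. Tbk1, the kinase that activates Irf3, averaged 44.1 ± 3.11 CPM in KO-labelled and 40.5 ± 5.23 CPM in WT libraries (log2 fold change 0.12, SE 0.10). Mavs and Ticam1, adaptors of RNA helicase and of Toll-like receptor signalling, had log2 fold changes of 0.02 and 0.00. Ifih1, the RNA sensor MDA5, was singled out after its values were seen: it had the largest positive value of the 82. It was at 1.41, 0.959 and 1.51 CPM in KO-labelled libraries, against 0.996, 0.676 and 0.599 CPM in WT libraries. KO-labelled library 2 lay below WT library 1, so the groups overlapped. Its log2 fold change was 0.76 (SE 0.31, adjusted p = 0.678, with the block 0.189), from 83 reads in KO-labelled and 46 in WT libraries.

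Of 9 inhibitors of the response, 0 were called, and the median was −0.03 on the log2 scale. Adar, an RNA-editing enzyme that keeps cellular RNA from being sensed, averaged 184 ± 17.1 CPM in KO-labelled and 175 ± 20.3 CPM in WT libraries (log2 fold change 0.07, SE 0.10). Pias1, a SUMO ligase gene, and Rnaseh2a, a subunit of ribonuclease H2, had log2 fold changes of −0.02 and −0.04. No inhibitor thus stood out in either direction.

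Interferon-stimulated effectors bear most directly on whether Samd9l moved with other targets. Of 65 in the table, 36 were tested and 0 were called higher or lower in either fit, with a median log2 fold change of 0.03 and a range of −0.67 to 0.58. Of the 36 values, 20 were above 0 and 16 below. In KO-labelled libraries 8 effectors were higher in every pair and 1 was lower in every pair. Over all tested genes these patterns were shown by 19.3% and 19.8%. In 30 of the 36 the 95% interval ended below 1, and in 35 it ended below 1.62. The exception was Rsad2, which encodes viperin, with 32 reads in KO-labelled and 21 in WT libraries and a log2 fold change of 0.50 (SE 0.55). Ifitm2, which blocks virus entry, averaged 24.4 ± 1.66 CPM in KO-labelled and 24.3 ± 3.01 CPM in WT libraries (adjusted p = 0.995). Cmpk2, a nucleotide kinase gene, averaged 17.5 ± 1.69 CPM in KO-labelled and 17.6 ± 2.27 CPM in WT libraries. Pml, the organiser of nuclear bodies, averaged 13.4 ± 1.47 CPM in KO-labelled and 13.5 ± 0.943 CPM in WT libraries. For all 3 the group means were nearer to each other than the libraries within a group. The neighbour of Ifit3, Ifit2, named after its values were seen, averaged 13.2 ± 1.12 CPM in KO-labelled and 13.4 ± 1.44 CPM in WT libraries.

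The summed level of the effectors was 159, 137 and 141 CPM in KO-labelled libraries, against 155, 145 and 135 CPM in WT libraries. Library 1 was the highest of each genotype, and the groups overlapped. Of the 29 effectors not tested, 2 (Ccl5 and Gvin1) had no read at all. Classical targets such as Ifit1, with 1 read in KO-labelled and 3 in WT libraries, and Mx1, with 3 reads in KO-labelled and 3 in WT libraries, were near 0 in both genotypes, and they were named after their values were seen. Irgm2, also untested, had 51 reads in KO-labelled and 21 in WT libraries and was higher in every pair. Fitted without the filter on low counts, its log2 fold change was 1.18 (SE 0.50, interval 0.06 to 2.30), without a call. That interval held the Samd9l value of 1.62. Ifi44 had 31 reads in KO-labelled and 15 in WT libraries (0.95, SE 0.65). Oas1b went the other way, with 18 and 26 reads (−0.62, SE 0.54). All 3 were named after their values were seen. Of the effectors, 49 had a promoter window. The 26 with an ISRE core had 14 tested genes, a median log2 fold change of 0.02 and 0 calls. The 23 without it had 16 tested genes, a median of 0.01 and 0 calls.

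Of 9 tested class I antigen presentation genes, 0 were called, with a median of −0.10. Tapbp, which loads peptide onto class I molecules, averaged 21.3 ± 1.33 CPM in KO-labelled and 22.8 ± 2.19 CPM in WT libraries. H2-D1, a class I heavy chain gene, averaged 16.6 ± 1.25 CPM in KO-labelled and 16.7 ± 3.07 CPM in WT libraries. Psmb10, an immunoproteasome subunit gene, had a log2 fold change of −0.18 (SE 0.11, adjusted p = 0.813). Nlrc5, the transactivator of class I genes, was singled out after its values were seen as the most negative of the 82. It was at 0.754, 0.751 and 0.957 CPM in KO-labelled libraries, against 1.56, 1.26 and 1.25 CPM in WT libraries. The groups did not overlap, KO-labelled below WT, as in 6.09% of tested genes. Its log2 fold change was −0.73 (SE 0.25, adjusted p = 0.550, with the block 0.178).

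**Figure D4:**
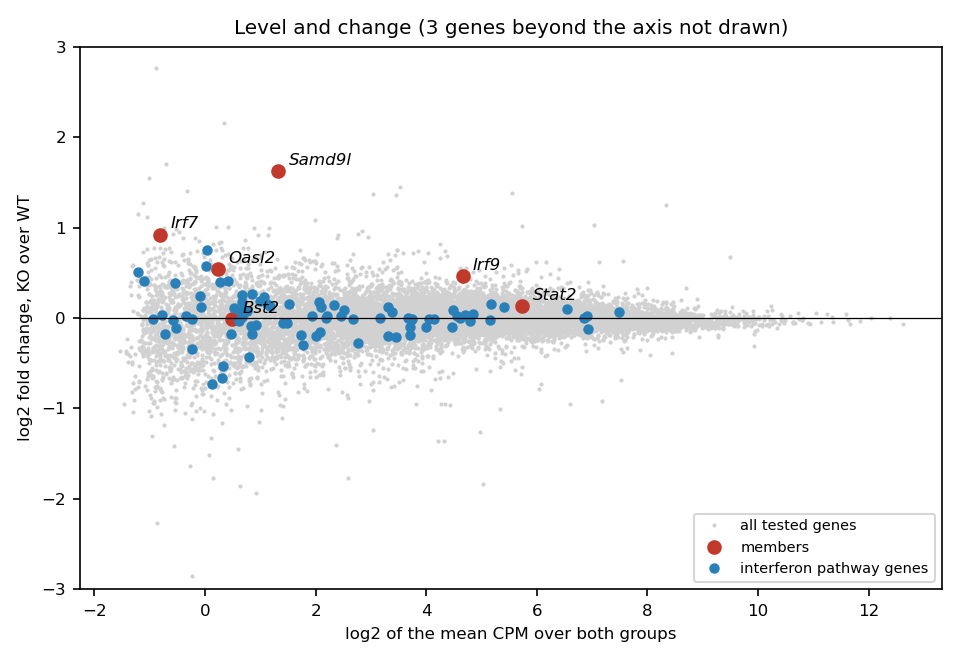
Fitted log2 fold change, KO over WT (vertical axis), against the log2 of the mean CPM over both groups (horizontal axis) for all tested genes (grey), the 82 pathway genes (blue) and the 6 tested genes of the Samd9l set (red, named). Samd9l lies at 1.62, above every blue point; 3 grey genes lie beyond the vertical axis.

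Genes near Samd9l on chromosome 6 showed no difference of its size. Of 10 neighbours in the table, 6 were tested and 0 were called in either fit, with log2 fold changes from −0.31 for Gng11, a G protein subunit gene, to 0.06 for Sgce, a sarcoglycan gene, and in all 6 the 95% interval ended below 1. The nearest of them, Hepacam2, starts 57.5 kb away and had 17 reads in KO-labelled and 17 in WT libraries, too few to be tested. Ccdc132, also named Vps50, 98.8 kb away, averaged 71.8 ± 2.14 CPM in KO-labelled and 74.3 ± 4.84 CPM in WT libraries (log2 fold change −0.05, SE 0.06, adjusted p = 0.947). Bet1, Casd1 and the imprinted gene Peg10 had log2 fold changes of −0.06, −0.04 and −0.06. Gng11, Bet1, Casd1, Sgce and Peg10 lay 604 to 1348 kb from Samd9l, so of the tested neighbours only Ccdc132 was nearer.

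The genes whose profile over the 6 libraries was most like that of Samd9l were not among the interferon genes listed. By Pearson's r of log2 CPM they were Gar1 (r = 0.999), Trmt12 (0.995), Stam2 (0.991), Fam69c (0.991) and Prrc1 (0.989). This r was taken over all 6 libraries with the genotype difference left in, the contrast for which Samd9l was chosen. Genes with well-separated groups and little spread within them therefore rank high, while genes with few reads are held back by their noise. Such values describe likeness only and cannot tell whether genes respond together. Gar1, a subunit of small nucleolar ribonucleoproteins, averaged 22.4 ± 0.454 CPM in KO-labelled and 19.8 ± 0.392 CPM in WT libraries. Trmt12, a tRNA-modifying enzyme gene, averaged 8.67 ± 0.284 CPM in KO-labelled and 6.30 ± 0.285 CPM in WT libraries. In both the groups did not overlap, KO-labelled above WT, as in 7.42% of tested genes. The differences were far smaller than that of Samd9l, with log2 fold changes of 0.18 and 0.46. Of the interferon genes, Irf9 was the most alike, with r = 0.842 and rank 507 of 14617, and Stat2 ranked 2071.

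Markers of microglia, endothelium and pericytes leaned lower in KO-labelled libraries without a call in either fit. The 15 microglia and macrophage markers were all tested, with a median log2 fold change of −0.13, 4 values above 0 and 11 below. Of these, 5 were lower in KO-labelled libraries in every pair, a pattern shown by 19.8% of all tested genes, and 0 were higher in every pair. Their summed level was 121, 89.2 and 86.6 CPM in KO-labelled libraries 1 to 3, against 125, 105 and 92.8 CPM in WT libraries 1 to 3. The ranges overlapped, while each KO-labelled sum lay below the WT sum of its number. Trem2, a microglial lipid receptor gene named after its values were seen, alone of the 15 had groups that did not overlap, at 1.82 ± 0.190 CPM in KO-labelled and 2.19 ± 0.206 CPM in WT libraries. That pattern, KO-labelled below WT, was shown by 6.09% of all tested genes. Csf1r, the microglial growth factor receptor gene, averaged 20.1 ± 3.41 CPM in KO-labelled and 19.3 ± 2.94 CPM in WT libraries, and Cx3cr1, the fractalkine receptor gene, averaged 10.8 ± 1.68 CPM in KO-labelled and 10.6 ± 1.79 CPM in WT libraries. The 11 endothelial markers had 0 calls and a median of −0.09, with 1 value above 0 and 10 below, and 4 were lower in every pair against 0 higher in every pair. They summed to 264, 235 and 201 CPM in KO-labelled libraries, against 289, 247 and 209 CPM in WT libraries, again overlapping as groups but lower in KO-labelled libraries in each pair. The glucose transporter gene Slc2a1 averaged 55.8 ± 11.0 CPM in KO-labelled and 63.2 ± 14.7 CPM in WT libraries, and the tight junction gene Cldn5, the single endothelial marker with a positive log2 fold change, 37.8 ± 2.45 CPM in KO-labelled and 36.9 ± 5.62 CPM in WT libraries. The 9 pericyte and meninges markers varied most, with 0 calls, a median of −0.32 and all 9 values below 0. They summed to 289, 142 and 131 CPM in KO-labelled libraries, against 351, 274 and 100 CPM in WT libraries. Their sum was thus lower in KO-labelled libraries in pairs 1 and 2 but higher in pair 3. The collagen gene Col1a2 was at 82.2, 26.2 and 15.4 CPM in KO-labelled libraries and 107, 70.2 and 12.4 CPM in WT libraries, and Ptgds, a meningeal prostaglandin synthase gene, at 59.6, 23.8 and 34.5 CPM in KO-labelled and 78.1, 82.4 and 15.1 CPM in WT libraries. Library 1 was the highest of its genotype in the sums of these 3 lists. Of the blood cell markers 2 were tested, Beta-s and the haem enzyme gene Alas2, and 0 were called. Of 8 neocortical neuron markers 0 were called without the block, and 2 were called higher with it, Bcl11b among them. The neuron markers summed to 2384 to 2582 CPM in KO-labelled and 2301 to 2545 CPM in WT libraries. The part of these cell types in the Samd9l difference was not tested.

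**Figure D5:**
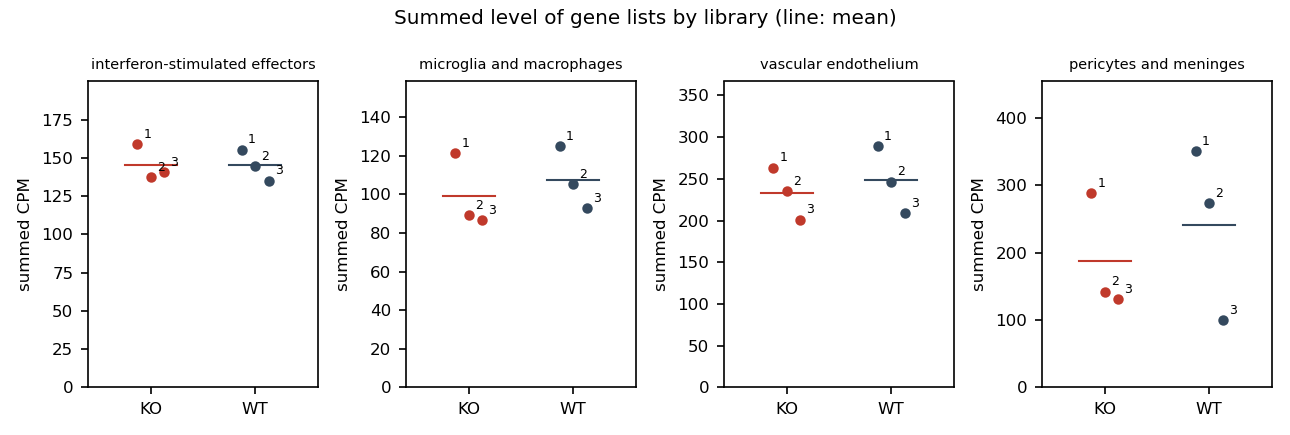
Summed CPM (vertical axis, from 0) of the interferon-stimulated effectors and of the microglia, endothelial and pericyte and meninges markers in each KO-labelled (red) and WT (blue) library, numbered, with the mean as a line. The groups overlap in all 4 panels, and library 1 is the highest of its genotype in each.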

How the data were processed

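Libraries were made from total RNA with a stranded kit, per the labels' protocols. The authors deposited a table of unnormalised counts, whole reads for each gene symbol. Build mm10 and the tools HTSeq 0.5.3p9, Bowtie2 2.1.0, TopHat2 2.0.9 and CASAVA 1.8.2 are listed in the submitters' processing notes. The sources used here give neither the annotation nor whether counting used strand, so overlapping and near-identical genes may share or lose reads. Depth was 18569383 to 24147810 counts per library. Libraries of 1 genotype differed by more than sampling noise, so none was counted as a copy.

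The fits used edgeR 4.0.16 in R 4.3.3 (quasi-likelihood test, robust, TMM scaling, default filter), two-sided, with Benjamini-Hochberg adjustment over 14618 genes and a threshold of 0.05. CPM and log2 fold changes were computed from the deposited counts. Standard errors came from the quasi-likelihood F statistic. P-values measure the spread between pools of embryos. The edgeR fits with and without the block were tried on simulated counts. These held no effect shared by same-numbered libraries, so the block was not tried on paired data. Alternatives were the library number as a block, RLE scaling, DESeq2 1.42.0, no filter beyond 1 count in all, and leaving out libraries or pairs.

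Deviations from the group means correlated at 0.614, 0.514 and 0.467 between same-numbered libraries and at −0.483 to −0.0684 otherwise. All 3 exceeded 0.1, so same-numbered libraries were treated as pairs. The labels do not say what the numbers share, and such values can arise without true pairs.

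The 9 genes and all lists were chosen with earlier results of these data known. Named pathway genes were those past the threshold and the 3 of highest mean CPM per list; cell type markers were the 2 of highest mean CPM; all tested neighbours of Samd9l and the 5 genes most like it were also named or summarised by range. Likeness was Pearson's r of log2 CPM with a prior count of 2. All 136 pathway names were in the table, 7 of them under another RefSeq symbol. Gene positions came from GENCODE on GRCm38 and promoters from RefSeq. A few genes that the naming rule covers are not reported here by name, and list counts, medians and sums include them.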

Additional observations from a re-analysis of the deposited data

How the results depend on the processing

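The Samd9l log2 fold change kept its sign in all alternatives, at 1.52 to 1.83 without any 1 library and 1.47 to 1.74 with a pair left out under the block. Samd9l was called by edgeR with the block and by DESeq2, which had no block, but not by edgeR without the block. Because Samd9l was chosen from this contrast, these calls support nothing. Irf9 passed with the block (0.47) but not when pair 3 was left out, and Irf7 passed only with the block and without pair 2 (1.32). Bst2 changed sign: it ran from −0.32 to 0.32 without 1 library, from −0.48 to 0.33 with the block and a pair left out (0.18 without pair 2), and was 0.0023 with the block and no filter. Ifit3 passed the filter without KO library 3 (0.081) and without WT library 3 (−0.46), and in no other fit that left out 1 library. The cause was not tested. Over all genes, 7 were called higher and 4 lower; the counts were 288 and 218 with the block, 11 and 9 with no filter, 66 and 42 with DESeq2, and 460 and 286 with the block and no filter, a setting chosen after seeing the data. Leaving out 1 library gave 1 to 21 higher and 2 to 14 lower, the most without WT library 2. With the block, leaving out a pair gave 35 to 1119 higher (141 without pair 1, 1119 without pair 2, 35 without pair 3) and 27 to 755 lower (154, 755 and 27 in the same order), on 1 residual degree of freedom. Pathway calls stayed at 0 except with the block and without pair 2, where Irgm2 was called higher and Trim25 and H2-T23 lower (1 and 2 genes). The effector median, 0.03, ran from −0.035 without WT library 3 to 0.13 without KO library 3, and was 0.10 without WT library 1. Isg15, Ifit3, Usp18 and 54 of the 136 pathway genes did not pass the filter on low counts on all 6 libraries; fitted without it, none of them was called.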
